A study of Mus musculus with 47 samples.

Results

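The nuclear genes of oxidative phosphorylation were followed through 10 RNA-seq libraries of mouse liver and spermatozoa. Members were chosen by gene symbol alone: names starting with Nduf and a subunit letter and number, Sdha to Sdhd, names starting with Uqcr, Cox4 to Cox8 or Atp5, and the cytochromes c Cycs and Cyct. This rule took 86 of the 23416 genes kept, with 37 in complex I, 4 in complex II, 8 in complex III, 18 in complex IV, 17 in ATP synthase and 2 cytochromes c. A few members are not subunits of the complex their name gives: Cox7a2l is a supercomplex assembly factor, the product of Ndufa4 is found in complex IV, and Atp5s and Atp5sl are coupling or assembly factors. The rule used no measured value. All groups were males of 8 to 12 weeks, with 2 biological replicates each. The Ctrl-F1 and KO-F1 males, whose background strain is labelled BDF2, were born after intracytoplasmic injection (ICSI) of testicular sperm, from wild-type and from Scml2-KO fathers respectively, into oocytes of BDF1 females. Scml2, an X-linked germline Polycomb gene, was disrupted by zinc finger nucleases in C57BL/6 mice, and sons do not receive the paternal X chromosome, so KO-F1 males carried wild-type Scml2. The KO-F2 males (strain labelled BDF3) were born to KO-F1 males housed with C57BL/6 females, without ICSI, and were compared with Ctrl-F1 males. Generation, mode of conception and strain label therefore cannot be told apart between KO-F2 and the F1 groups.

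In the inner mitochondrial membrane, complexes I and II pass electrons from NADH and succinate to ubiquinone, complex III passes them on to cytochrome c, and complex IV hands them to oxygen. ATP synthase uses the resulting proton gradient to make ATP. Most subunits are nuclear-encoded and used in every tissue, but some have tissue isoforms. Late in spermatogenesis, germ cells use a testis cytochrome c (Cyct) and testis subunits of complex IV (Cox6b2, Cox7b2 and Cox8c), while Cycs, Cox6b1, Cox7b and Cox8a are the counterparts used elsewhere. Transcription ceases in late spermatids, so the RNA of mature spermatozoa was made earlier or taken up later.

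The 4 isoform pairs are encoded at separate loci of GRCm38. Cyct lies at chr2:76353942-76360453 (minus strand) and Cycs at chr6:50562563-50566569 (minus). Cox6b2 lies at chr7:4751792-4753094 and Cox6b1 at chr7:30616971-30626114, both on the minus strand. Cox8c lies at chr12:102899306-102900534 (plus) and Cox8a at chr19:7215158-7217616 (minus). Cox7b2 lies at chr5:71442823-71548205 (minus) and Cox7b at chrX:106015700-106022450 (plus). Reads of the paired genes can be told apart, since the coding sequences were 76.8% identical between Cyct and Cycs, 61.9% between Cox6b2 and Cox6b1, 51.5% between Cox8c and Cox8a and 65.1% between Cox7b2 and Cox7b. The longest run shared by the mRNAs of a pair was 14 bases, against reads of 75 bases. No 75-base stretch of the 4 testis isoform mRNAs occurred elsewhere in the genome. Of the counterparts, 35.8% of the stretches of Cycs, 13.6% of Cox8a, 0.971% of Cox7b and 0% of Cox6b1 did. Unique counts of Cycs and Cox8a may therefore be too low against those of their testis isoforms.

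The 250 bases before the annotated start are shown for the cytochrome c pair and for the Cox7b pair, because these promoters belong to the isoforms whose levels are compared below. The sequences are from RefSeq for GRCm38.p6, 5′ to 3′ on the strand of the gene, and the capitals mark a cAMP response element (TGACGTCA).
Cyct, chr2:76360454-76360703: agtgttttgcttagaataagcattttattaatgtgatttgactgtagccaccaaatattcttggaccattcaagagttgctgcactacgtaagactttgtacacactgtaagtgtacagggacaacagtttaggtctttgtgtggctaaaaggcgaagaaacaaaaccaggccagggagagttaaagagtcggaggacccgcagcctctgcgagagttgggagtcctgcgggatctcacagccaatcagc
Cycs, chr6:50566570-50566819: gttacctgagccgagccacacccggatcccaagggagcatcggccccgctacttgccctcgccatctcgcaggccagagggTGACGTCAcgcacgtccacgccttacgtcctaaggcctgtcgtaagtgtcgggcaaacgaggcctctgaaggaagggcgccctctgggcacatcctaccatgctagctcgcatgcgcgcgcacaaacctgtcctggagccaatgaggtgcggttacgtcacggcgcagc
Cox7b2, chr5:71548206-71548455: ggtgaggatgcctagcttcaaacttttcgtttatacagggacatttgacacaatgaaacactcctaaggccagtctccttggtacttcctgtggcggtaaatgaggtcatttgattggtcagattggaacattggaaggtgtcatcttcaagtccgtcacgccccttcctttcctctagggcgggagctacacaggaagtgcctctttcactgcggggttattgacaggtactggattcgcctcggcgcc
Cox7b, chrX:106015450-106015699: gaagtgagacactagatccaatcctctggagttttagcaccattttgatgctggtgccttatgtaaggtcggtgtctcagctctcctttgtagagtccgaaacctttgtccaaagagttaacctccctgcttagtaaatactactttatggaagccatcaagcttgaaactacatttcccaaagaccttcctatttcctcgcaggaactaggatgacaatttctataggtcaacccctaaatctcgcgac
The Cycs stretch held 23 CpG dinucleotides at a GC content of 64%, against 6 CpG dinucleotides at 45.6% in Cyct. Cox7b2 held 9 at 50.4% and Cox7b 5 at 43.6%. Windows of 300 bases (250 before and 50 after a start) were found for 71 members and searched on both strands, and a gene was counted when any of its starts matched. The palindromic motif of NRF1, a factor that controls many respiratory genes, was searched as its consensus with a free central base and was in the windows of 17 of the 71 members (23.9%), against 5.19% of all 27025 genes with a window. The cAMP response element was in 5 of 71 (7.04%), against 2.03%. Neither motif was in the windows of the 3 testis isoforms found, and Cox8c had no entry. A match is a description of letters and says nothing of binding.

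The counts per gene were deposited by the authors for uniquely aligned reads. Library totals ranged from 11339729 to 14278900 counts in liver, from 1503733 to 2778171 in F1 spermatozoa, and were 11462105 and 8384266 in KO-F2 spermatozoa. A limit of 3 counts corresponds to at most 0.265 CPM in liver, where CPM is a count relative to all counts of its library, and 2.00 CPM in F1 spermatozoa. Liver RNA was poly(A)-selected with a stranded kit, while total RNA of swim-up spermatozoa of the cauda epididymis was amplified with a low-input kit. Amplified reads are not independent molecules, and the intervals given cover counting error only. A sequencing run is labelled for KO-F2 spermatozoa (the same for both libraries) but not for F1 spermatozoa, so run and generation cannot be told apart either. Scml2 had 0 counts in the 4 liver libraries, and in spermatozoa it had 0 and 18 counts (Ctrl-F1), 0 and 4 (KO-F1) and 6 and 9 (KO-F2). All 15 hepatocyte markers were above 3 counts in every liver library, and all 20 late spermatid markers in every sperm library. Between 3.52% and 28.7% of sperm counts fell on Rn45s, a ribosomal RNA gene. Of the 86 members, 78 had more than 3 counts in both libraries of Ctrl-F1 liver, 77 in Ctrl-F1 spermatozoa, 76 in KO-F1 spermatozoa and 81 in KO-F2 spermatozoa. Ndufs5 had 0 counts in all 10 libraries. Over 50% of the 75-base stretches of 8 mRNAs (Atp5g1, Atp5g2, Atp5h, Atp5l, Cox5b, Cox7c, Ndufb4 and Ndufs5) recur elsewhere in the genome, so their unique counts are uncertain.

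The first question was how the set differs between control spermatozoa and control liver. The members took 1.65% and 1.70% of counts in Ctrl-F1 liver (95% Wilson intervals 1.644% to 1.657% and 1.688% to 1.702%) and 0.529% and 0.390% in Ctrl-F1 spermatozoa (0.520% to 0.538% and 0.380% to 0.40%). Both sperm libraries thus lay below both liver libraries. By edgeR's quasi-likelihood test, 52 of 82 members tested were called (fold change of at least 2 and Benjamini-Hochberg adjusted p under 0.01), 46 lower and 6 higher in spermatozoa, against 30.2% of all 13204 genes tested. The median log2 fold change of the members was -2.12, against -0.02 for all genes. The count fell to 29 without Ctrl-F1 liver replicate 1 (18.7% of all genes tested were called then) and to 33 without replicate 2 (19.1%). Tissue, kit and RNA selection cannot be told apart in this comparison.

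Of 21 genes listed as core subunits, 19 were called lower and 0 higher in spermatozoa (90.5% called), against 30.2% of all genes called in either direction. The list held Ndufs1 to Ndufs3, Ndufv1, Ndufv2, Sdha to Sdhd, Uqcrc1, Uqcrc2, Uqcrfs1, Cox4i1, Cox5a, Cox5b, Atp5a1, Atp5b, Atp5c1 and Atp5g1 to Atp5g3. The label is loose, since Cox4i1, Cox5a and Cox5b are accessory subunits and the core subunits Ndufs7 and Ndufs8 are left out. All 4 subunits of succinate dehydrogenase were called lower, among them the iron-sulfur subunit Sdhb, with 12.8 and 16.8 normalized CPM in spermatozoa against 303 and 311 in liver (log2 fold change -4.40 ± 0.31 SE, adjusted p = 0.0012). Sdha, the flavoprotein subunit, had 28.9 and 53.6 against 542 and 554 normalized CPM (-3.75 ± 0.41). Of the 17 ATP synthase genes, 12 were called lower. The catalytic subunit Atp5b had 205 and 173 against 1316 and 1280 normalized CPM (-2.78 ± 0.29), and the alpha subunit Atp5a1 59.8 and 106 against 1227 and 1193 (-3.87 ± 0.41). In complex I, 20 of 36 genes tested were called lower, among them the catalytic core subunits Ndufs1 (-3.69 ± 0.33) and Ndufv1 (-2.54 ± 0.31). Complex III had 3 lower calls among 8 genes (37.5%), near the 30.2% of all genes called. These calls included the core protein Uqcrc1 (-2.71 ± 0.27) and the Rieske protein Uqcrfs1 (-1.74 ± 0.26). Complex IV had 6 lower and 3 higher calls among 15, and the housekeeping subunit Cox4i1 was not called (-0.74 ± 0.25, adjusted p = 0.060). The plot of levels in both tissues shows this shift of most genes below the line of equal level.

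**Figure D1:**
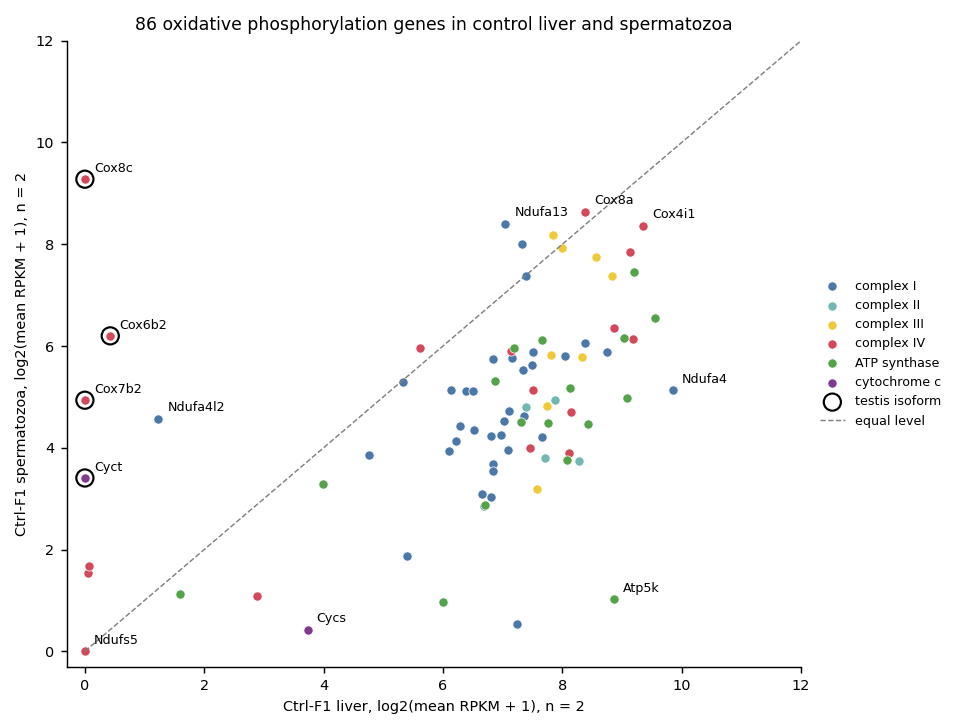
Mean level of each of the 86 genes in Ctrl-F1 liver (x axis) and Ctrl-F1 spermatozoa (y axis), both as log2 of counts per kilobase of exon and scaled to the library total (RPKM) plus 1, n = 2 libraries per axis. Colours mark the complexes and black rings the 4 testis isoforms, which sit at or near 0 on the liver axis; most other genes lie below the dashed line of equal level.

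The testis isoforms made up 4 of the 6 higher calls. Cox8c, a small subunit of complex IV, had 0 counts in the 4 liver libraries and 1008 and 263 counts in Ctrl-F1 spermatozoa, at least 1392-fold higher when liver is set to the limit of 3 counts per library. Cox7b2, another small subunit, had 0 counts in liver and 36 and 26 in spermatozoa, at least 75.8-fold higher. Cyct had 0 counts in liver and 25 and 12 in spermatozoa, at least 43.1-fold higher. Cox6b2, which takes the place of Cox6b1 in complex IV, had 138 and 49 counts in spermatozoa against 4 and 2 in liver of Ctrl-F1 (log2 fold change 7.85 ± 0.60, adjusted p = 0.0012). With the bounds in place of fitted values, the median log2 fold change of the 4 isoforms was 7.05 (fitted, 9.84). The other higher calls were Ndufa4l2, a hypoxia-responsive paralog of Ndufa4 (4.30 ± 0.54), and Ndufa13 (1.63), whose counts are described below. Without either liver library, Cyct, Cycs, Ndufa4l2 and Ndufa13 were not among the calls, and Cyct was not without Ctrl-F1 sperm replicate 1. Ndufa13 was also lost with the size factors of DESeq2 and with no filter on low counts.

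Of the 4 counterparts, 3 were called lower in spermatozoa and Cox8a was not. Cycs had 548 counts per library of Ctrl-F1 liver and 2 per library of Ctrl-F1 spermatozoa, at least 24-fold lower. The log2 fold change was -4.06 ± 0.33 for Cox7b and -2.80 ± 0.38 for Cox6b1. Cox8a, the liver-type subunit, had 218 and 261 normalized CPM in spermatozoa against 164 and 168 in liver (0.53 ± 0.25, adjusted p = 0.14). Per length, Cox8c ranked highest of the 86 genes in Ctrl-F1 spermatozoa at 620 ± 357 RPKM (SD, n = 2), and Cox8a second at 399 ± 1.53, a difference within the spread of Cox8c. In Ctrl-F1 liver Ndufa4 ranked highest at 925 ± 65.1 RPKM and Atp5b second at 753 ± 19.8. The isoforms of other tissues were scarce everywhere: Cox8b had 1 count over the 10 libraries, and Cox4i2 and Cox6a2 had at most 7 counts in any library. Cox7a1, the heart and muscle isoform, had 20 to 33 counts per liver library and at most 6 per sperm library.

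**Figure D2:**
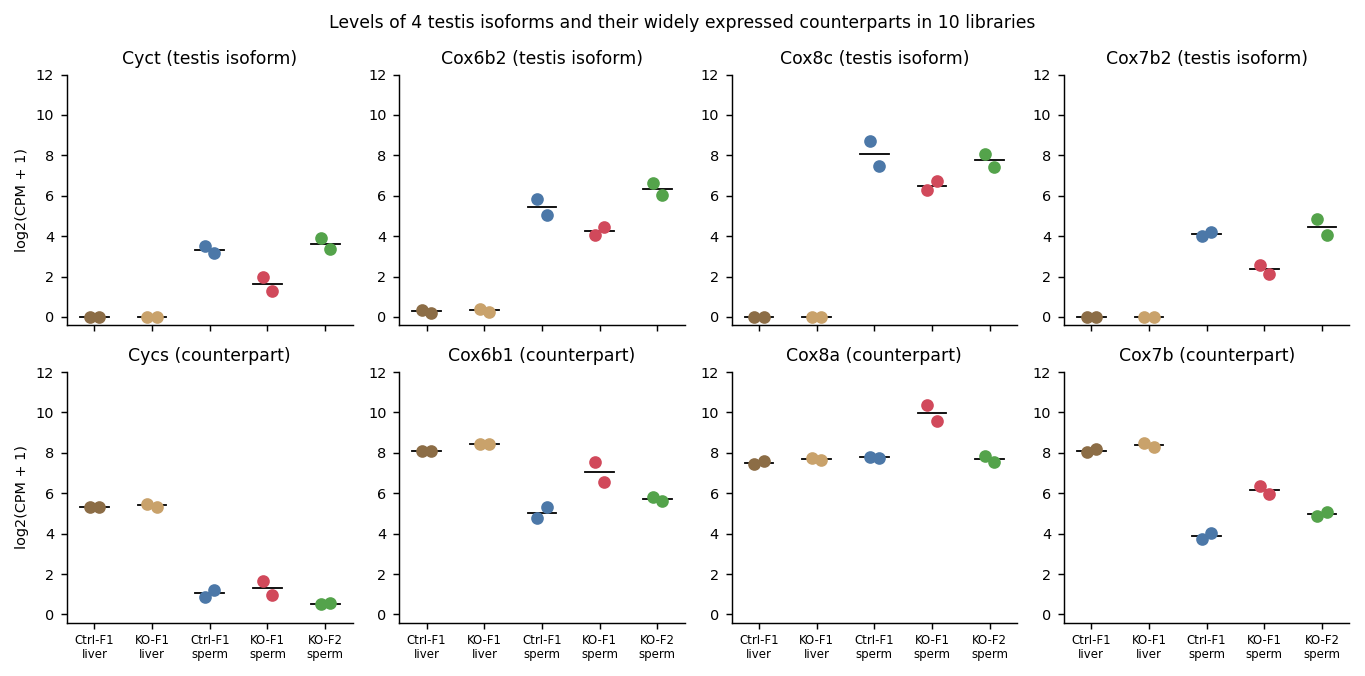
Level of the testis isoforms Cyct, Cox6b2, Cox8c and Cox7b2 (top) and of their counterparts Cycs, Cox6b1, Cox8a and Cox7b (bottom) in the 10 libraries, as log2 of CPM of the library total plus 1. Each point is a library and each bar a group mean (n = 2); in KO-F1 spermatozoa all testis isoforms lie below both other sperm groups, and Cox6b1, Cox8a and Cox7b lie above them.

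Liver of F1 males was compared next, to ask whether the father's genotype was followed by a difference in somatic tissue. The members took 1.82% and 1.73% of counts in KO-F1 liver, both above the Ctrl-F1 values given above. None of the 78 members tested was called by edgeR (0 of 11505 genes, 0%), and DESeq2 called 0 members. At an unadjusted p under 0.05, 22 members were higher and 1 lower, against 3.99% and 5.42% of all genes. The differences were small and mostly in the same direction: 67 of 78 members had a higher mean in KO-F1, and in 59 (75.6%) both KO-F1 libraries exceeded both Ctrl-F1 libraries, against 20.2% of all genes tested. In 7 members (8.97%) both were lower, against 21.4% of all genes. The median log2 fold change was 0.24, against -0.01 for all genes. Other values differed as well: Rn45s took 1.21% and 1.59% of counts in KO-F1 liver against 0.636% and 0.706% in Ctrl-F1, the 15 hepatocyte markers had a median of 0.22 (11 higher and 4 lower) and the 12 leukocyte markers tested a median of 0.37 (all higher, with 2 apart). Their part in the difference of the members was not tested.

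All 7 members lower in both KO-F1 liver libraries belonged to the list of 21 genes given above, of which 10 others were higher in both (median 0.13). The accessory subunit Ndufa8 had the smallest p, with 150 and 173 normalized CPM in KO-F1 against 111 and 109 in Ctrl-F1 (log2 fold change 0.55 ± 0.15, adjusted p = 0.48). Ndufv3 (0.52 ± 0.16), Ndufb7 (0.46 ± 0.15), Cox7c (0.45 ± 0.15) and Ndufa3 (0.45 ± 0.15) followed. The groups of these 5 genes did not overlap, and the adjusted p-values ranged from 0.48 to 0.49. The members with the smallest p among these 7 were Ndufs1 (-0.42 ± 0.16), Atp5b (-0.35 ± 0.16), Sdha (-0.29 ± 0.16) and Atp5a1 (-0.16 ± 0.16). Medians were 0.26 in complex I, 0.04 in complex II, 0.22 in complex III, 0.31 in complex IV and 0.19 in ATP synthase. Of the counterparts, Cox6b1 (0.42 ± 0.15), Cox7b (0.35 ± 0.15), Cox8a (0.25 ± 0.14) and Cycs (0.15 ± 0.15) had higher values in both KO-F1 libraries, and the testis isoforms were too scarce to be tested.

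In F1 spermatozoa the testis isoforms and most other members differed in opposite directions between KO-F1 and Ctrl-F1, without passing the threshold by edgeR. The members took 1.28% and 0.778% of counts in KO-F1 spermatozoa (95% Wilson intervals 1.265% to 1.291% and 0.766% to 0.790%), above both Ctrl-F1 values of 0.529% and 0.390%. The 4 testis isoforms took 0.0101% and 0.0130%, below the Ctrl-F1 values of 0.0497% and 0.0233%. By edgeR no member was called among 76 tested (0 of 10785 genes, 0%), while 20 were higher and 4 lower at an unadjusted p under 0.05, against 8.88% and 10.6% of all genes. DESeq2 called 2 of 84 members, Cox8a higher (log2 fold change 1.84, adjusted p = 1.1e-04) and Cox8c lower (-2.06, adjusted p = 5.7e-04). This share was near the 2.32% of its 16807 genes. When genes under 10 counts in any library were left out, edgeR called 4 members, Cox6c, Cox8a and Ndufa1 higher and Cox8c lower, against 3.20% of 6251 genes. Library totals without Rn45s moved the median of all genes to 0.42, that of the members to 1.23 and that of the testis isoforms to -1.84.

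All 4 testis isoforms had lower values in both KO-F1 libraries than in both Ctrl-F1 libraries. Cox8c had 62.9 and 95.5 normalized CPM in KO-F1 against 455 and 222 in Ctrl-F1 (log2 fold change -2.10 ± 0.49, edgeR adjusted p = 0.14). Cox6b2 had 12.9 and 19.4 against 62.3 and 41.3 normalized CPM (-1.69 ± 0.59, adjusted p = 0.18). Cox7b2 had 4.11 and 3.08 against 16.2 and 21.9 (-2.38 ± 0.95, adjusted p = 0.22), from 14 and 7 counts against 36 and 26. Cyct had 2.35 and 1.32 against 11.3 and 10.1 (-2.49 ± 1.23, adjusted p = 0.31), from 8 and 3 counts against 25 and 12. The groups of each isoform were apart although no difference passed the threshold, and the standard errors were largest for Cyct and Cox7b2, which had the fewest reads. Their median log2 fold change was -2.24.

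The counterparts had higher values in KO-F1. Cox8a had 1095 and 690 normalized CPM in KO-F1 against 239 and 275 in Ctrl-F1 (log2 fold change 1.80 ± 0.42, edgeR adjusted p = 0.14). Cox7b had 66.1 and 55.9 against 13.5 and 19.4 (1.90 ± 0.55, adjusted p = 0.15), and Cox6b1 151 and 85.4 against 28.4 and 49.7 (1.61 ± 0.52, adjusted p = 0.16). Both KO-F1 libraries lay above both Ctrl-F1 libraries for these 3 genes. Cycs stayed at 6 and 2 counts in KO-F1 against 2 and 2 in Ctrl-F1, close to the limit of 3 counts, and was not tested. Per length, Cox8a ranked highest of the 86 genes in KO-F1 spermatozoa (1920 ± 765 RPKM) and Cox4i1 second (957 ± 533), with Cox8a the higher of the pair in each library.

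Most other members shared the direction of the counterparts. Leaving out the testis isoforms, 65 of 72 members tested had a higher mean in KO-F1. Their median difference was 0.85 on the log2 scale, and that of all genes 0.02. Over all 76 members, the libraries were apart with KO-F1 higher in 50 (65.8%), against 28.3% of all genes, and lower in 7 (9.21%), against 25.8%. Medians by complex lay close together, at 0.85 in complex I, 0.54 in complex II, 0.80 in complex III, 0.78 in complex IV and 0.90 in ATP synthase. Next to the counterparts Cox8a and Cox7b, the members with the smallest p among the higher were Ndufa1 (1.96 ± 0.53), Ndufv3 (1.56 ± 0.42) and Ndufb11 (1.60 ± 0.44), all accessory subunits of complex I with an edgeR adjusted p of 0.14. Ndufa1 had 144 and 73.0 normalized CPM in KO-F1 against 32.5 and 22.8 in Ctrl-F1. Ndufv3 had 220 and 151 against 67.7 and 58.1, and Ndufb11 234 and 140 against 63.2 and 60.7.

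For several subunits the standard errors were too wide to resolve a difference. Ndufs1 had 9.11 and 11 normalized CPM in KO-F1 against 10.8 and 7.58 in Ctrl-F1 (0.12 ± 0.96), Sdhb 16.8 and 16.7 against 14.0 and 17.7 (0.08 ± 0.72), and Sdha 55.8 and 60.3 against 31.6 and 56.4 (0.41 ± 0.50). The groups overlapped for these 3 genes and for Ndufv1 (0.55 ± 0.54) and Cox5a (0.60 ± 0.47). Atp5a1 (1.17 ± 0.45), Cox4i1 (1.07 ± 0.46), Uqcrfs1 (0.76 ± 0.40) and Atp5b (0.64 ± 0.38) were higher in both KO-F1 libraries, with edgeR adjusted p-values from 0.21 to 0.40. Apart from the testis isoforms, 3 members were lower in both KO-F1 libraries: Ndufa13 (-1.24 ± 0.42, with counts uncertain as described below), Ndufa4l2 (-0.93 ± 0.64) and Uqcrc1 (-0.57 ± 0.49).

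**Figure D3:**
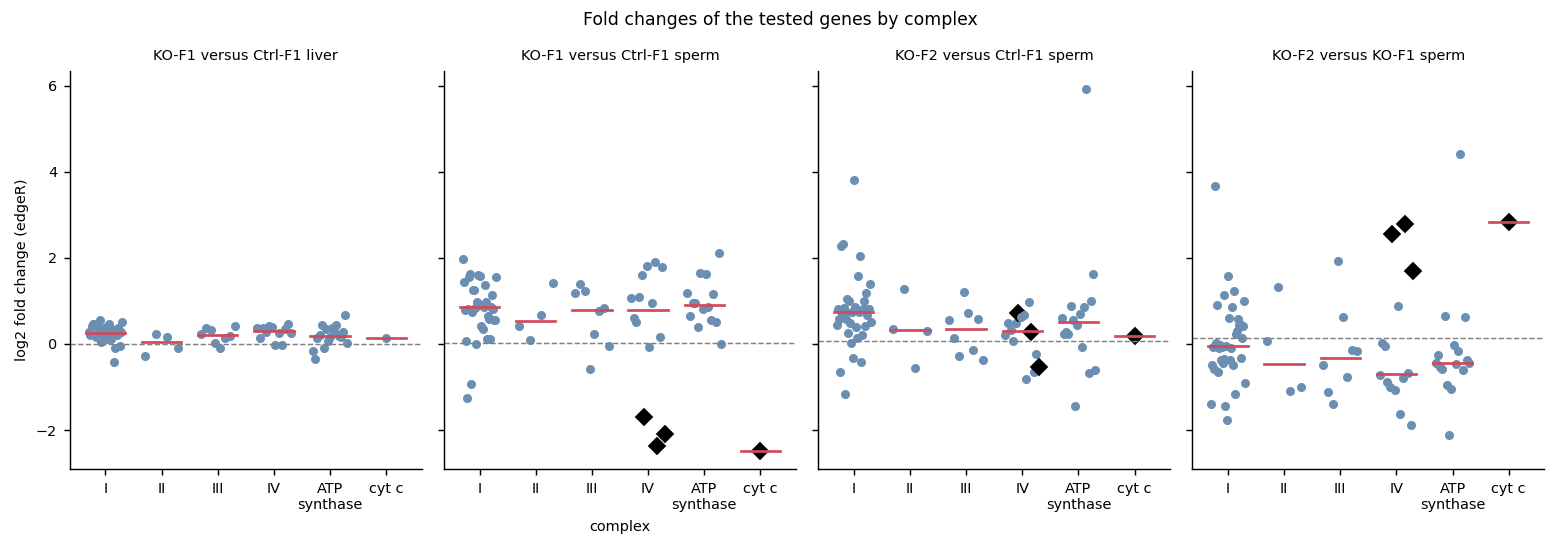
Log2 fold changes by edgeR of the tested genes in 4 comparisons (panels), grouped by complex on the x axis. Each circle is a gene, black diamonds are testis isoforms, red bars the medians of a complex and dashed lines the medians of all genes tested; the diamonds lie below all other genes in KO-F1 against Ctrl-F1 sperm (median -2.24) and above most of them in KO-F2 against KO-F1 sperm (median 2.67).

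The ratio of a testis isoform to its counterpart within a library does not depend on the scaling of libraries. On the log2 scale with 0.5 counts added, the ratio of Cox7b2 to Cox7b was 0.22 ± 0.06 (SD, n = 2) in Ctrl-F1, -4.02 ± 0.09 in KO-F1 and -0.54 ± 0.69 in KO-F2 spermatozoa. The ratio of Cox8c to Cox8a was 0.31 ± 0.88, -3.48 ± 0.90 and 0.06 ± 0.23 in the same order. That of Cox6b2 to Cox6b1 was 0.43 ± 0.98, -2.83 ± 0.99 and 0.63 ± 0.28, and that of Cyct to Cycs 2.84 ± 0.73, 0.44 ± 0.07 and 4.48 ± 0.53. For all 4 pairs both KO-F1 libraries lay below the Ctrl-F1 and KO-F2 libraries. The ratios in KO-F1 were 18.9-fold, 13.9-fold, 9.58-fold and 5.28-fold lower than in Ctrl-F1 for these pairs, the last resting on 2 to 6 counts of Cycs per library. An exact two-sided permutation test of 2 against 2 libraries cannot give a p below 0.33. By that exact test 10 of the 12 comparisons of pairs reached this smallest value (Benjamini-Hochberg adjusted p = 0.40), and those of Cox6b2 and Cox8c between KO-F2 and Ctrl-F1 did not (exact p = 1). Per length, the level of Cox8a was 15.2 and 6.31 times that of Cox8c in the KO-F1 libraries, and 0.458 and 1.08 times in Ctrl-F1.

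**Figure D4:**
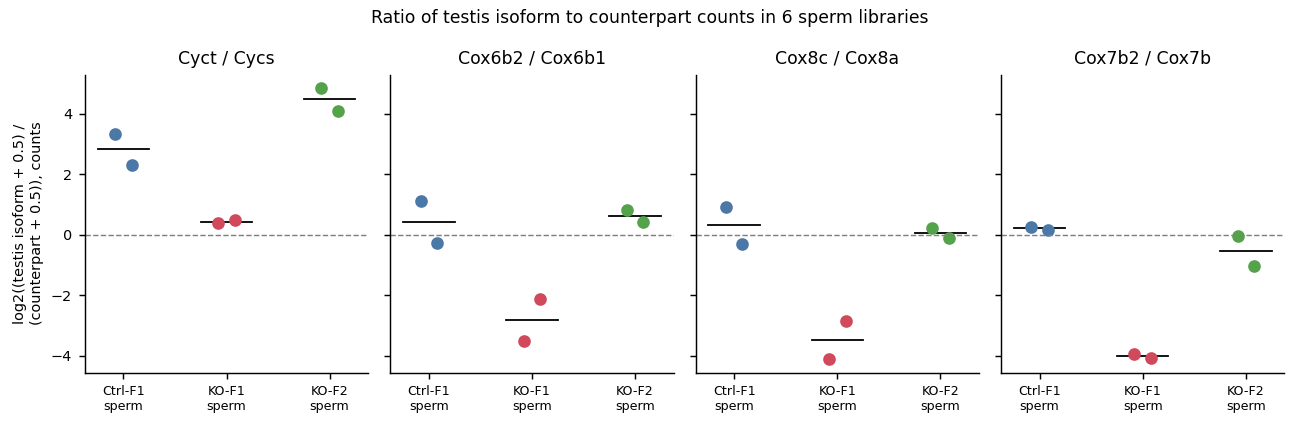
Log2 ratio of testis isoform to counterpart counts, with 0.5 added to each, in the 6 sperm libraries for 4 pairs (panels). Points are libraries and bars group means (n = 2); the dashed line marks equal counts, and both KO-F1 points lie below all other points in every panel.

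Of the cell type markers, those of late spermatids moved in the direction of the testis isoforms. The shares of leukocyte markers without Cd52 and of epididymal epithelium markers overlapped between KO-F1 and Ctrl-F1. The 20 late spermatid markers took 14.1% and 12.5% of counts (Ctrl-F1), 6.21% and 4.74% (KO-F1) and 16.4% in each KO-F2 library, and all 20 were lower in both KO-F1 libraries than in Ctrl-F1 (median log2 fold change -1.79). At an unadjusted p under 0.05 all 20 were lower, while edgeR called 0 and DESeq2 16. In bulk samples fewer cells of a type and less RNA per cell cannot be told apart. Summed, the testis isoforms amounted to 0.353% and 0.186% (Ctrl-F1), 0.162% and 0.274% (KO-F1) and 0.249% and 0.160% (KO-F2) of the late spermatid marker counts. The 3 groups overlapped for this sum. Most of it was Cox8c, with 1008 and 263 of 1207 and 350 counts in Ctrl-F1. In KO-F1, Cox8c gave 214 and 217 of 280 and 271 counts. The isoforms were not scaled to these markers singly. The 15 leukocyte markers took 0.716% and 0.327% (Ctrl-F1), 3.12% and 1.28% (KO-F1) and 0.691% and 0.695% (KO-F2) of counts. Cd52, which the epididymal epithelium also expresses, made up 73.0% to 98.4% of these marker counts in F1 spermatozoa, and without it the shares were 0.0437% and 0.0884% (Ctrl-F1), 0.0493% and 0.0684% (KO-F1) and 0.388% and 0.554% (KO-F2). Cd3e, a T cell marker, and S100a9 had 0 counts in all 4 F1 sperm libraries, and the median log2 fold change of the 11 leukocyte markers tested was -0.58, with 10 lower and 1 higher. The 21 epididymal epithelium markers took 2.55% and 0.911% (Ctrl-F1), 2.08% and 1.93% (KO-F1) and 0.505% and 0.254% (KO-F2) of counts, with a median of -0.11 between KO-F1 and Ctrl-F1 and Lcn5 or Lcn8 at 0 in each F1 library. Hepatocyte markers took at most 0.0292% in any sperm library. The part of any of these cell types in the differences of the members was not tested.

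**Figure D5:**
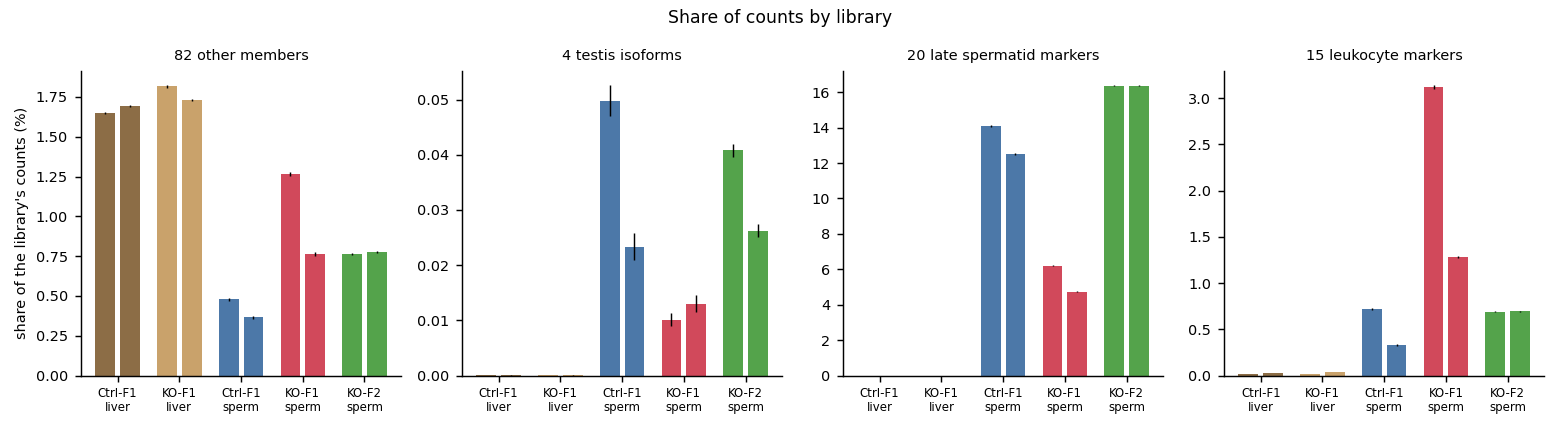
Share of each library's counts (%) taken by the 82 other members, the 4 testis isoforms, 20 late spermatid markers and 15 leukocyte markers, with 95% Wilson intervals that cover counting error only. Bars are libraries, coloured by group. KO-F1 sperm bars are lower than Ctrl-F1 sperm bars for testis isoforms and spermatid markers and higher for the other members and leukocyte markers. Cd52 makes up 73.0% to 98.4% of the leukocyte marker counts in F1 sperm, and without it the shares of KO-F1 and Ctrl-F1 overlapped.

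The next generation was compared with the same 2 Ctrl-F1 sperm libraries. The members took 0.804% and 0.805% of counts in KO-F2 spermatozoa, and the testis isoforms 0.0408% and 0.0263%, within the range of Ctrl-F1. Ndufa13, whose counts are uncertain as described below, made up 24.0% and 34.5% of the member counts in KO-F2, and without it the members took 0.611% and 0.527% of counts, against 0.488% and 0.345% in Ctrl-F1. No member among 79 tested was called by edgeR (0 of 13149 genes, 0%), with 13 higher and 1 lower at an unadjusted p under 0.05, against 9.07% and 5.83% of all genes. DESeq2 called 3 of 84 members, all higher (Atp5k, Ndufa13 and Ndufb8), against 1.48% of its 18680 genes. The median log2 fold change of the members was 0.55, against 0.07 for all genes. The libraries were apart with KO-F2 higher in 48 members (60.8%), against 28.9% of all genes, and lower in 6 (7.59%), against 19.2%. Medians were 0.74 in complex I, 0.32 in complex II, 0.35 in complex III, 0.29 in complex IV and 0.50 in ATP synthase. Markers of other cells differed as well, with 0 called by edgeR and a median of 1.70 for 14 leukocyte markers tested (13 higher, 4 called by DESeq2), -0.59 for 20 epididymal epithelium markers (13 lower, 7 called by DESeq2) and 0.39 for the 20 late spermatid markers (16 higher, 2 called by DESeq2). Their part in the differences of the members was not tested.

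No testis isoform passed the test between KO-F2 and Ctrl-F1. Cox8c had 257 and 163 normalized CPM in KO-F2 against 410 and 200 in Ctrl-F1 (log2 fold change -0.54 ± 0.44), Cox7b2 26.3 and 14.8 against 14.6 and 19.8 (0.27 ± 0.52), and Cyct 13.2 and 8.66 against 10.2 and 9.14 (0.18 ± 0.62). These groups overlapped. Cox6b2 was higher in both KO-F2 libraries, at 92.2 and 61.3 against 56.1 and 37.3 (0.71 ± 0.39, edgeR adjusted p = 0.47). The median of the 4 isoforms was 0.22 and became -0.15 without KO-F2 replicate 1. The counterparts Cox7b (0.97 ± 0.45), Cox6b1 (0.48 ± 0.41) and Cox8a (-0.23 ± 0.30) did not pass the threshold either.

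Among the other members, differences from Ctrl-F1 were spread over accessory and core genes. Ndufb8, an accessory subunit of complex I, had 132 and 112 normalized CPM in KO-F2 against 43.5 and 38.1 in Ctrl-F1 (1.58 ± 0.32, edgeR adjusted p = 0.17). Ndufa3, another accessory subunit, had 47.9 and 50.0 against 14.2 and 4.57 (2.31 ± 0.57, adjusted p = 0.21), and Uqcrc1 118 and 104 against 45.9 and 50.3 (1.21 ± 0.31, adjusted p = 0.21). Of the catalytic genes, Sdhb had a log2 fold change of 1.28 ± 0.42, Ndufv1 0.82 ± 0.36, Atp5a1 0.60 ± 0.36, Sdha 0.35 ± 0.41, Atp5b 0.24 ± 0.29 and Ndufs1 0.22 ± 0.65, with edgeR adjusted p-values from 0.24 to 0.93. Atp5g1, a gene for the c subunit of ATP synthase, was the member with the smallest p among the lower, at 16.5 and 13.7 against 40.6 and 41.9 normalized CPM (-1.45 ± 0.39, adjusted p = 0.22). Ndufa4l2 (-1.17 ± 0.49), Cox7a2l (-0.81 ± 0.40), Cox7c (-0.66 ± 0.75) and Ndufc2 (-0.41 ± 0.38) were also lower in both KO-F2 libraries.

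The difference between the KO generations was tested directly by comparing KO-F2 with KO-F1 spermatozoa. By edgeR 1 of 79 members was called, Ndufa13, against 2.31% of 13517 genes, and 12 members were higher and 18 lower at an unadjusted p under 0.05, against 22.4% and 14.4% of all genes. DESeq2 called 12 of 84 members, 6 higher and 6 lower, against 11.0% of its 18714 genes. The median log2 fold change of the members was -0.17, against 0.13 for all genes, and became 0.06 (all genes 0.33) without KO-F1 replicate 1. The libraries were apart with KO-F2 higher in 23 members (29.1%), against 37.2% of all genes, and lower in 32 (40.5%), against 28.7%. The number of members called by edgeR moved with the libraries used, to 17 without KO-F1 replicate 2 (19.2% of all genes were called then), 4 without KO-F1 replicate 1 (10.3%) and 2 without KO-F2 replicate 2 (2.64%). Library totals without Rn45s moved the median of all genes to -0.52, that of the members to -0.81 and that of the testis isoforms to 2.03, with 7 members called, 1 higher and 6 lower, against 4.50% of all genes.

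The testis isoforms were higher in both KO-F2 libraries than in both KO-F1 libraries. Cox6b2 had 116 and 73.4 normalized CPM in KO-F2 against 13.0 and 19.3 in KO-F1 (log2 fold change 2.56 ± 0.41, edgeR adjusted p = 0.011). Cox7b2 had 32.9 and 17.8 against 4.14 and 3.08 (2.79 ± 0.59, adjusted p = 0.022), Cox8c 321 and 195 against 63.2 and 95.4 (1.71 ± 0.39, adjusted p = 0.027) and Cyct 16.5 and 10.4 against 2.36 and 1.32 (2.82 ± 0.76, adjusted p = 0.041). DESeq2 called the first 3 of these, as did edgeR without KO-F1 replicate 2. Their median was 2.67. Late spermatid markers moved likewise, with all 20 higher in both KO-F2 libraries and a median of 2.40 (4 called by edgeR, 19 by DESeq2). Of 14 leukocyte markers tested 13 were higher (median 2.51, 5 called by edgeR), and of 20 epididymal epithelium markers 12 were lower (median -1.34, 0 called by edgeR and 10 called lower by DESeq2). The part of these cell types was not tested.

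The members lower in KO-F2 included the counterparts. Cox8a had 276 and 209 normalized CPM against 1101 and 689 in KO-F1 (-1.88 ± 0.38, edgeR adjusted p = 0.019, called by DESeq2), Cox6b1 a log2 fold change of -0.996 ± 0.38 and Cox7b of -0.80 ± 0.33. Atp5g1 had 20.7 and 16.4 against 101 and 60.7 (-2.12 ± 0.39, adjusted p = 0.015). Cox7a2l (-1.63 ± 0.33), Ndufb3, an accessory subunit of complex I (-1.77 ± 0.37), and Uqcrb, a small subunit of complex III (-1.39 ± 0.33), followed with edgeR adjusted p-values from 0.019 to 0.029. The core protein Uqcrc1 went the other way, with 148 and 124 in KO-F2 against 39.6 and 32.1 in KO-F1 (1.92 ± 0.33, adjusted p = 0.012). KO-F1 libraries enter this comparison and the one with Ctrl-F1, so the values of the isoforms in both rest on the same 2 libraries.

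Ndufa13 and Atp5k stood apart from the other members. Ndufa13, an accessory subunit of complex I, had 2298 and 3138 normalized CPM in KO-F2 against 168 and 261 in KO-F1 spermatozoa (log2 fold change 3.66 ± 0.42, edgeR adjusted p = 0.0091). Per length it ranked highest of the 86 genes in KO-F2 spermatozoa, at 1857 ± 474 RPKM. Its exons overlap those of Tssk6, a testis-specific serine kinase gene on the opposite strand, over 375 bases, and the sperm kit does not mark strand, so reads of the pair cannot be told apart there. Tssk6 had 7044 and 9548 CPM in KO-F2, 673 and 1406 in KO-F1 and 2587 and 2853 in Ctrl-F1 spermatozoa, the same order of groups as Ndufa13, and the share of Ndufa13 counts that stem from Tssk6 was not tested. Tssk6 had 0 or 1 count in liver, where Ndufa13 had 156 to 218 CPM. Atp5k, the e subunit of ATP synthase, had 1852 to 2132 counts per liver library, but 0 and 1 count in spermatozoa of Ctrl-F1, 5 and 1 of KO-F1 and 211 and 170 of KO-F2. Its level in control spermatozoa was at least 91.9-fold lower than in control liver, and Atp5k was at least 12.0-fold higher in KO-F2 than in Ctrl-F1 spermatozoa with the latter set to the limit of 3 counts per library. With 0 and 1 count in Ctrl-F1, the fitted log2 fold change of Atp5k between KO-F2 and Ctrl-F1 was 4.58 to 10.16 leaving out a library. No 75-base stretch of its mRNA recurs elsewhere in the genome.

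Related pathways were read from lists of genes. Of the mitochondrial assembly factors, 6 of 37 tested were called lower and 1 higher in Ctrl-F1 spermatozoa against liver (median log2 fold change -1.74), as were 12 lower and 1 higher of 17 tricarboxylic acid cycle genes (-2.33) and 1 lower and 0 higher of 15 genes of mitochondrial biogenesis (-1.53). The shares called were 76.5% of the cycle genes, against 30.2% of all genes. They were 18.9% of the assembly factors and 6.67% of the biogenesis genes, both under the share of all genes. Between KO-F1 and Ctrl-F1 spermatozoa edgeR called none of these genes and DESeq2 2 of 38 assembly factors, both higher, against 2.32% of all genes by DESeq2. At an unadjusted p under 0.05, 5 assembly factors were higher and 1 lower, 3 cycle genes were higher and 1 lower, and 0 biogenesis genes were in either direction. Of all genes, 8.88% were higher and 10.6% lower at that threshold. The medians there were 0.85 for 28 assembly factors, 0.38 for 17 cycle genes and 0.46 for 10 biogenesis genes, against 0.84 for the members. In F1 liver the medians were 0.09, -0.15 and -0.15, against 0.24 for the members. Between KO-F2 and Ctrl-F1 spermatozoa they were 0.22, 0.16 and -0.25, and between KO-F2 and KO-F1 -0.52, -0.03 and -0.04. In the latter comparison edgeR called 1 of 35 assembly factors higher (2.86%), near the 2.31% of all genes called.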

How the data were processed

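Raw counts per gene of 10 mouse libraries (5 groups of 2) were used as deposited. According to the methods and the submitters' processing notes, the authors aligned single-end reads of 75 bases to GRCm38/mm10 with HISAT2 2.1.0 and counted uniquely aligned reads per gene with featureCounts; annotation and strand setting are not given in the sources used here. Of 23420 lines per file, 4 lines of 2 duplicated symbols were left out, and 23416 genes were kept. Libraries of a group differed by more than sampling noise; the study calls them biological replicates, and since the sources used here do not tie them to animals, p-values measure only the spread between libraries.

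Comparisons were fitted in R 4.3.3 by the quasi-likelihood F test of edgeR 4.0.16, after filterByExpr (minimum count 10, minimum total count 15) and TMM normalization, with Benjamini-Hochberg adjustment over all genes tested. A gene was called at an adjusted p below 0.01 together with a change of 2-fold or more. Normalized CPM are from the fit of each comparison; RPKM use RefSeq exon lengths of GRCm38.p6. Shares carry 95% Wilson intervals. Ratios of isoforms were compared by exact permutation tests (scipy 1.17.1). The limit of detection was 3 counts. Fitting was tested on simulated data. Alternatives were DESeq2 1.42.0, its size factors, totals without Rn45s, other filters, thinning, the replicate number as a block and leaving out each library; members with at least 10 counts in every library, ratios of group sums and a crossed block in liver were added after seeing the data. The named genes are the isoforms, fixed subunits of each complex and, per comparison, at most 5 higher and 5 lower members with the smallest p whose groups did not overlap. Other members named in the text were chosen after their values were seen, and the values of 1 member are not reported here. The members and lists were chosen with earlier results of these data known.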

Additional observations from a re-analysis of the deposited data

Results flagged for a closer look

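The difference between the KO generations passed the test for Ndufa13, with a log2 fold change of 3.66 in KO-F2 against KO-F1 spermatozoa. It was the 1 call among 79 members (1.27%), against 2.31% of all genes. Under the 11 alternatives tried the log2 fold change of Ndufa13 stayed between 2.99 and 3.96. None of them separates reads of Ndufa13 from those of Tssk6, whose exons overlap on the opposite strand. Tssk6 had a log2 fold change of 3.38 in the same comparison.

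For 4 of the genes reported here, both KO-F1 libraries lay on one side of both Ctrl-F1 libraries in liver and on the opposite side in spermatozoa. Atp5a1 had a log2 fold change of -0.16 in liver and 1.17 in spermatozoa, and Atp5b of -0.35 and 0.64. Sdhd, an anchor subunit of complex II, had -0.10 and 1.43. Ndufa13 went the other way, with 0.43 in liver and -1.24 in spermatozoa. Tssk6, whose sperm reads cannot be told apart from those of Ndufa13 where the exons overlap, had -1.81 in the same sperm comparison. Of all genes tested, both KO-F1 libraries were above both Ctrl-F1 libraries in 20.2% and below them in 21.4% in liver. In spermatozoa these shares were 28.3% and 25.8%. The share of all genes on opposite sides was not counted, and the difference between the tissues was not tested. No group held enough libraries for a test of outlying samples.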

How the results depend on the processing

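With 2 libraries per group and few reads in F1 spermatozoa, depth limits Cyct, Cycs, Cox7b2 and the isoforms of other tissues most, and no cause of the changes listed here was tested.

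For control spermatozoa against liver, the members' median log2 fold change was -1.98 with totals without Rn45s (all genes 0.13), -2.26 with no filter, -2.29 with at least 10 counts in every library and -1.75 with thinned counts. The testis isoforms' median was 10.05 with DESeq2, 9.81 with its size factors, 9.97 without Rn45s, 9.68 with no filter and 7.66 with thinned counts. Leaving out a library gave 29 to 71 members called, a members' median of -2.50 to -1.91 and a testis isoforms' median of 9.34 to 10.60.

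For F1 liver no alternative called a member. Uqcrc1 turned to -0.0307 with totals without Rn45s. Leaving out a library turned Uqcrc1 (-0.0748 to 0.13), Cox7a1 (-0.29 to 0.20), Ndufa4l2 (-0.22 to 0.50) and Ndufv1 (-0.11 to 0.0056).

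For KO-F1 against Ctrl-F1 spermatozoa, members called were 2 with DESeq2, 1 with no filter and 4 with at least 10 counts in every library, the last changing the genes adjusted over. Totals without Rn45s moved the median of all genes to 0.42, of the members to 1.23 and of the testis isoforms to -1.84. The testis isoforms' median was -1.81 with at least 10 counts in every library, -2.11 with thinned counts, -1.89 over the 2 isoforms with at least 10 counts in every library, and -2.32 to -1.96 leaving out a library. Sdhb turned to -0.0282 with thinned counts, and leaving out a library gave -0.0879 to 0.28 for Sdhb and -0.0886 to 0.40 for Ndufs1.

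For KO-F2 against Ctrl-F1 spermatozoa, members called were 3 with DESeq2 and 4 with the replicate block (Atp5k, Ndufa13, Ndufa3 and Ndufb8, all higher), and 0 to 1 leaving out a library. The members' median was 0.49 to 0.71 and the testis isoforms' median -0.15 to 0.56 leaving out a library. Ndufs1 turned to -0.0343 with thinned counts. Leaving out a library turned Cyct (-0.12 to 0.47), Cox8c (-0.91 to 0.0909), Cox7b2 (-0.18 to 0.64), Sdha (-0.0024 to 0.87), Ndufs1 (-0.0243 to 0.53) and Uqcrfs1 (-0.22 to 0.018), and the ratio differences of Cox6b2 to Cox6b1 (-0.49 to 0.90) and Cox8c to Cox8a (-0.87 to 0.37).

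For KO-F2 against KO-F1 spermatozoa, members called were 12 with DESeq2, 7 without Rn45s, 12 with no filter, 8 with at least 10 counts in every library, 5 with the replicate block, 4 with thinned counts and 15 at an adjusted p under 0.05 with no fold threshold, and 1 to 17 leaving out a library. Totals without Rn45s moved the median of all genes to -0.52, of the members to -0.81 and of the testis isoforms to 2.03. The members' median was -0.32 over the 75 members with at least 10 counts in every library and -0.46 to 0.0569 leaving out a library. The testis isoforms' median was 2.13 over 2 isoforms with at least 10 counts in every library and 2.27 to 3.03 leaving out a library. Without Rn45s, Sdha (-0.58), Ndufs1 (-0.42), Ndufv1 (-0.25) and Cox5a (-0.61) turned; Cox5a was -0.0134 with DESeq2 and -0.0125 with its size factors. Ndufa4l2 was 0.11 with at least 10 counts in every library. Leaving out a library gave -0.32 to 0.36 for Cox5a, -0.44 to 0.25 for Ndufa4l2 and -0.0059 to 0.13 for Sdha.

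The members' share without Rn45s in the total was 0.606% in Ctrl-F1 and 0.880% in KO-F2 spermatozoa. The ratios kept their direction with an offset of 1 count and with group sums. Named genes kept their direction in 1214 of 1243 pairs of a gene and an alternative. Part of these genes were chosen in these data because their groups did not overlap, so this count does not test their direction. The labels do not say whether same-numbered replicates share an animal, litter or day, and the correlation of their deviations was -0.16 to 0.16 over the comparisons. The block changed no call in F1 liver or between KO-F1 and Ctrl-F1 spermatozoa, called 45 members for control spermatozoa against liver (Cyct and Ndufa13 not among them), and a crossed block in liver called 0 members.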
